A study of Mus musculus with 36 samples.

Results

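The genes described here are 10 muscle genes, *Acta2*, *Tagln*, *Cnn1*, *Myh11*, *Des*, *Actc1*, *Myocd*, *Myf5*, *Myod1* and *Myog*, chosen by name from a table of 22761 genes. All 10 are in the table, and each is given in every group. The samples were 36 mouse RNA sequencing libraries in 9 groups of 4. Ex-fetu nephron progenitors (NP), stromal progenitors (SP) and ureteric bud (UB) cells came from kidneys of CD1 embryos at E11.5 and at E12.5, each sample pooling the kidneys of all embryos of a mouse. The iNP and iSP cells were differentiated from the E14 mouse embryonic stem cell (mESC) line, and the eUB cells, labelled iUB, from a reporter mESC line that the labels and the sorting and RNA methods name *Sox9-mCherry* and other parts of the study *Sox8-mCherry*, each sample pooling the embryoid bodies of 1 differentiation. NP and iNP were sorted as ITGA8 high and PDGFRA low, SP and iSP as ITGA8 low and PDGFRA high, UB as RET and EpCAM positive, and eUB as EpCAM and mCherry positive. The ureters were taken off before the kidneys were dissociated. For the UB samples the age in the title and the age in the cell source field disagree, and the titles are used here.

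Smooth muscle cells contract with a dedicated set of actin and myosin filament proteins, and most of their genes are driven by serum response factor (SRF), with myocardin or the myocardin-related factors as partners. In the embryonic kidney, smooth muscle forms around the ureter and the vessels, from stromal mesenchyme. Skeletal muscle forms from the somites, the segmented paraxial mesoderm, where *Pax3* and *Pax7* mark the precursors and MYF5, MYOD1 and myogenin act in sequence to commit and differentiate them. Desmin and cardiac alpha-actin are made in several kinds of muscle, and their messages alone name no single one.

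The libraries held 13.0 to 52.5 M (mega-) reads counted on genes, and 3 reads, taken as the limit of detection, were worth 0.0605 to 0.223 normalised CPM (counts per mega-read, scaled by the authors). Summed over 6 stromal markers, levels were 2079 to 3649 normalised CPM in the 12 SP and iSP libraries and 578 to 1013 in the 12 NP and iNP libraries. Summed over 6 nephron progenitor markers they were 1101 to 1700 in ex-fetu NP, 473 to 721 in iNP and 235 to 349 in SP and iSP. Summed over 6 ureteric bud markers they were 1909 to 3999 in UB and eUB, and at most 265 elsewhere. In bulk samples, fewer cells of a type and less RNA per cell cannot be told apart.

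The library furthest from its group was E12.5 UB replicate 1. In E12.5 UB replicate 1 *Des* was at 65.8 normalised CPM, against 1.23 to 3.57 in the other 3 E12.5 UB libraries. *Actc1* was at 21.9 there against 0.483 to 1.14, and *Acta2* at 12.9 against 2.04 to 3.79. *Myog* (6.84, 167 reads), *Myod1* (3.64, 89 reads) and *Myf5* (0.737, 18 reads) were present in replicate 1 and at 0 reads in the other 3. The same library held a stromal marker sum of 523 (185 to 198 in the others), a nephron progenitor sum of 347 (28.5 to 38.2) and an endothelial sum of 94.2 (3.27 to 6.23). In addition, 7 genes were at 5 or more in all 8 iNP and iSP libraries and at 1 or less in the other 23 ex-fetu libraries. These genes were chosen after their values were seen. All 7 were above 3 reads in this library, at a median of 20.2% of their iNP means. Comparisons with E12.5 UB are therefore given with and without it. Replicate 1 of E12.5 SP had a stromal sum of 2079 (3450 to 3649 in the others) and a macrophage sum of 20 (3.49 to 5.16). Replicate 1 of E12.5 NP had a stromal sum of 578 (929 to 1013) and a ureteric bud sum of 83.4 (21 to 27.7). Calls that changed without either library are given with the results.

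**Figure D1:**
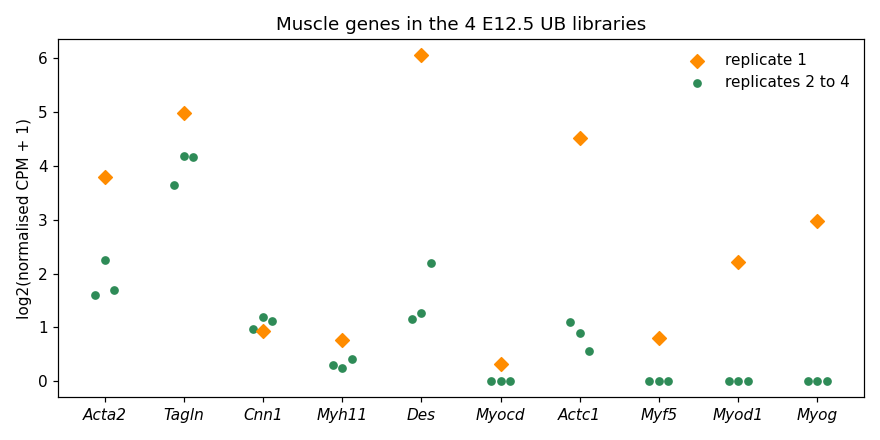
The 10 muscle genes (horizontal axis) in the 4 E12.5 UB libraries, as log2(normalised CPM + 1) on the vertical axis; diamonds are replicate 1 and circles replicates 2 to 4. Replicate 1 lies above the others for every gene except *Cnn1*, where it is the lowest at 0.901.

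Smooth muscle actin and its companions were lower in iSP than in E11.5 SP, while *Acta2* was higher in iNP than in E11.5 NP. Of the 10 genes, 7 passed the filter on low values (1 normalised CPM in 4 of 8 libraries) in the comparison of iSP with E11.5 SP. Of these, 6 were lower and 1, *Myog*, was higher at an adjusted p under 0.05 (limma, Benjamini-Hochberg over all genes tested), where 67.6% of all genes tested were called in either direction. *Cnn1*, *Myocd* and *Myog* passed through 1 of the groups alone and so had to differ. In iNP against E11.5 NP, 6 passed, 3 were higher and 2 lower, where 64.7% of all genes were called; *Myod1* and *Myog* passed through iNP alone. In eUB against E11.5 UB, 4 passed and 2 were lower, where 60.5% were called, *Des* passing through E11.5 UB alone. These shares of all genes are high, so the counts of members say little on their own.

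*Acta2*, which encodes the smooth muscle alpha-actin of the thin filaments, was at 14.1, 11.2, 26.3 and 11.7 normalised CPM in the 4 E11.5 SP libraries and at 7.05, 6.23, 6.5 and 5.03 in iSP. The ranges did not overlap. The difference was -1.15 ± 0.24 (SE) on the log2(value + 1) scale used throughout for differences (adjusted p = 0.002, limma). In NP it went the other way, from 6.43, 3.02, 3.97 and 1.68 in E11.5 NP to 17.4, 18.9, 17.2 and 14.4 in iNP. The iNP libraries were all above the E11.5 NP libraries, by 2.0 ± 0.27 (adjusted p = 1.2e-04, limma). In eUB it was at 1.6 ± 0.351 (SD, n = 4) and in E11.5 UB at 1.42 ± 0.337, and the 2 groups overlapped. By mean level the order was E12.5 SP (24.6), iNP (17), E11.5 SP (15.8), iSP (6.21), E12.5 UB (5.24), E12.5 NP (5.05), E11.5 NP (3.77), eUB (1.6) and E11.5 UB (1.42). Without replicate 1 the E12.5 UB mean was 2.68, below both NP groups. With it, the ranges of neighbours in this order overlapped except between E11.5 SP and iSP.

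*Tagln*, which encodes transgelin, an actin-bundling protein of smooth muscle, was lower in every ES-derived group. It was at 141, 93.5, 57.8 and 54.7 normalised CPM in E11.5 SP and at 0.58, 0.358, 0.702 and 1.05 in iSP. The ratio of the group means was 129 and the difference -5.62 ± 0.28 (adjusted p = 3.5e-07, limma). In E11.5 NP the libraries were at 55, 16.4, 17.5 and 22.2, and in iNP at 2.64, 2.79, 2.34 and 1.96. All iNP libraries were below all E11.5 NP libraries (-2.90 ± 0.33, adjusted p = 4.2e-05, limma). In E11.5 UB they were at 46.4, 57.9, 37.7 and 62.9 and in eUB at 2.15, 6.03, 5.07 and 7.51, again without overlap (-3.14 ± 0.29, adjusted p = 1.0e-05, limma). *Tagln* and *Des* were the members called lower in all 3 cell types.

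*Cnn1*, for calponin, which binds actin and is characteristic of differentiated smooth muscle, was at 6.44, 4.74, 4.97 and 4.63 normalised CPM in E11.5 SP and at 0.242, 0.215, 0.148 and 0.135 in iSP (-2.38 ± 0.12, adjusted p = 3.4e-07, limma). Every iSP library was far below every E11.5 SP library, but the gene passed the filter through E11.5 SP alone and so had to differ. *Cnn1* did not pass the filter in NP, where it was at 1.3 ± 0.385 (SD, n = 4) in E11.5 NP and 0.639 ± 0.223 in iNP, with overlapping ranges. In eUB it was at 0.446, 2.13, 1.85 and 2.23, and in E11.5 UB at 2.42 to 2.85. The ranges were apart, but the difference of -0.52 ± 0.24 did not pass (adjusted p = 0.0835, limma). It was called with upper-quartile scaling (-0.57, adjusted p = 0.047) and in a fit of all 36 libraries (-0.52, 0.038). Without eUB replicate 1 it was at -0.25 (0.11).

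*Myh11*, the myosin heavy chain of smooth muscle and its most specific contractile gene, stayed at or below 1.7 normalised CPM in all 36 libraries. It was at 0.567, 1.7, 1.63 and 0.26 in E11.5 SP and at 0.193, 0.609, 0.332 and 0.608 in iSP, with overlapping ranges (exact two-sided permutation p = 0.257). In iNP it was at 0.703, 0.361, 1.11 and 1, against 0.137 to 0.369 in E11.5 NP, and these ranges overlapped too (exact permutation p = 0.0571). With 4 libraries against 4, the smallest p this test allows is 0.0286.

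*Myocd*, for myocardin, the SRF partner that switches on the contractile genes, was at 3.74, 3.38, 2.42 and 3.04 normalised CPM in E11.5 SP and at 0.725, 0.43, 0.591 and 0.71 in iSP. The groups did not overlap (-1.35 ± 0.13, adjusted p = 1.5e-05, limma), but *Myocd* passed the filter through E11.5 SP alone and so had to differ. It was also lower in iNP (0 to 0.205) than in E11.5 NP (0.615 to 1.83), without overlap (exact permutation p = 0.0286). In eUB it had no reads, and in E11.5 UB it was at 0 to 0.281.

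*Des*, for desmin, the intermediate filament of muscle cells, had the highest level per kilobase of exon of the 10 genes in each NP and SP group, ex-fetu and ES-derived, at 23.4 to 75.1 normalised CPM per kilobase. It was at 180, 195, 211 and 172 normalised CPM in E11.5 SP and at 78.2, 97.8, 92.3 and 82.9 in iSP. The iSP libraries were all lower (-1.10 ± 0.10, adjusted p = 9.1e-06, limma). In NP it was at 291, 299, 287 and 252 at E11.5 and at 202, 224, 200 and 204 in iNP, a smaller difference without overlap (-0.44 ± 0.09, adjusted p = 0.0016, limma). Both *Des* calls stayed whichever library was left out. They were lost in a limma fit of all 36 libraries, at adjusted p = 0.068 for SP and 0.48 for NP. That fit takes the spread from all 9 groups, among them E12.5 UB, where *Des* was at 65.8 in replicate 1. The part of that library in the loss was not tested. In E11.5 UB *Des* was at 2.58 to 4.2 and in eUB at 0.106 to 0.223, at or near the limit of detection (-1.87 ± 0.14, adjusted p = 2.8e-06, limma). Here *Des* passed the filter through E11.5 UB alone and so had to differ.

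**Figure D2:**
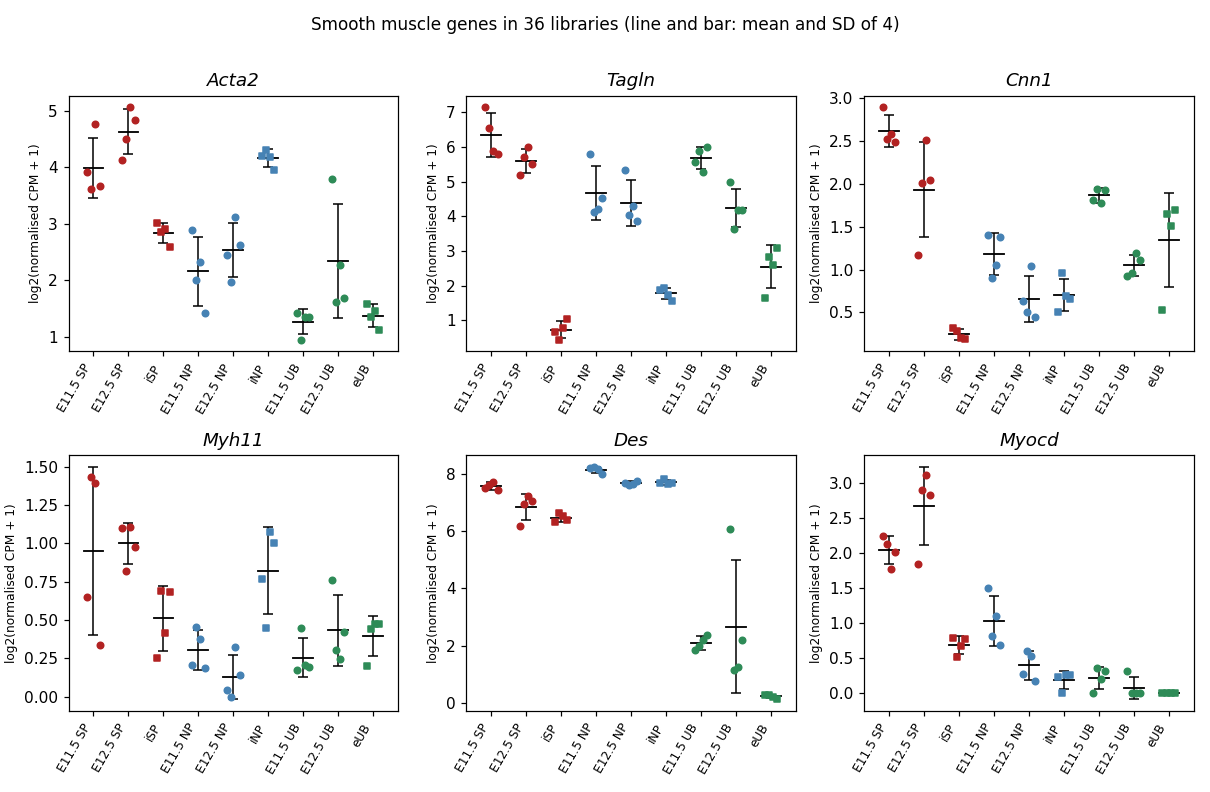
Levels of 6 smooth muscle genes as log2(normalised CPM + 1) on the vertical axis, in the 9 groups on the horizontal axis; points are libraries (circles ex-fetu, squares ES-derived), and lines and bars are the mean and SD of 4. *Tagln* is lowest in iSP, at 0.358 to 1.05 normalised CPM, and *Acta2* in iNP, at 14.4 to 18.9, lies above all E11.5 NP libraries.

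*Actc1*, the cardiac alpha-actin, which embryonic skeletal and smooth muscle also make, was at 11.7, 10.8, 16.1 and 21.5 normalised CPM in E11.5 SP and at 9.13, 5.09, 7.68 and 5.2 in iSP. The iSP libraries were all lower (-1.03 ± 0.24, adjusted p = 0.00364, limma), a call that the fit of all 36 libraries lost at adjusted p = 0.055. In NP the groups overlapped, with 14.3 ± 2.55 (SD, n = 4) at E11.5 and 17.5 ± 3.14 in iNP (adjusted p = 0.162, limma). In eUB it was at 0.426 to 0.859 and in E11.5 UB at 0.604 to 1.56, and it did not pass the filter.

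The 3 myogenic factors were higher in iNP than in E11.5 NP, and *Myog* was higher in iSP than in E11.5 SP. *Myog*, for myogenin, which drives terminal differentiation of skeletal muscle, was at 7.42, 10.7, 10 and 6.1 normalised CPM in iNP and at 0.429, 0.101, 0.171 and 0.171 in E11.5 NP (2.95 ± 0.17, adjusted p = 8.1e-07, limma). *Myog* passed the filter there through iNP alone, so it had to come out higher. In iSP it was at 4.93, 1.83, 3.58 and 3.82, and no E11.5 SP library had a read. Against the value of 3 reads per library, the iSP mean was at least 29.7-fold higher. In E11.5 UB and eUB it had no reads.

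*Myod1*, which commits cells to the skeletal muscle lineage, was at 2.22, 1.48, 2.08 and 1.52 normalised CPM in iNP and at 0.0853 to 0.234 in E11.5 NP (1.28 ± 0.12, adjusted p = 1.4e-05, limma). *Myod1* also passed the filter there through iNP alone, so it had to come out higher. In SP the groups overlapped, at 1.3, 0.851, 0.596 and 0.312 in E11.5 SP and 0.918, 0.322, 0.739 and 1.22 in iSP (exact permutation p = 0.886). Against E12.5 SP, at 0.0542 to 0.229, the iSP libraries were all higher (exact permutation p = 0.0286). *Myod1* in SP was thus also lower at E12.5 than at E11.5, without overlap and with the same exact p.

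*Myf5*, an early determination factor of the same family, was at 1.27, 1.54, 1.23 and 0.706 normalised CPM in iNP and at 0.111 to 0.338 in iSP. Of the ex-fetu NP and SP libraries, most had no read, and the highest was at 0.1. The iNP libraries did not overlap with those of E11.5 NP (exact permutation p = 0.0286). The lowest iSP library and the highest E11.5 SP library each held 3 reads, the limit of detection, so SP was not compared. In eUB it had no reads.

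**Figure D3:**
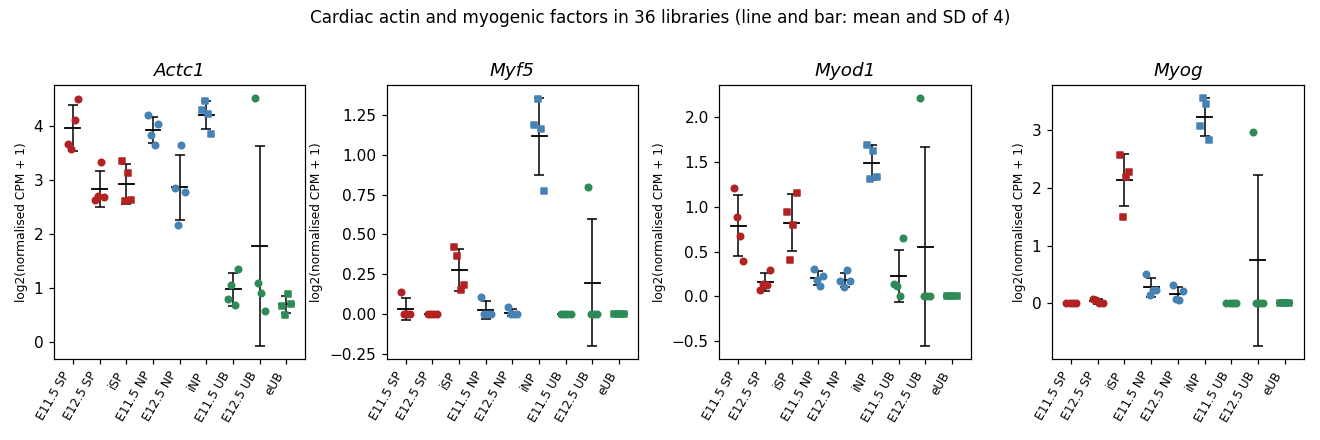
Levels of *Actc1* and of 3 myogenic factors as log2(normalised CPM + 1) on the vertical axis, in the 9 groups on the horizontal axis, drawn as for the smooth muscle genes. *Myog* is at 6.1 to 10.7 normalised CPM in iNP and 1.83 to 4.93 in iSP, and the single high ex-fetu point is E12.5 UB replicate 1, at 6.84.

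**Figure D4:**
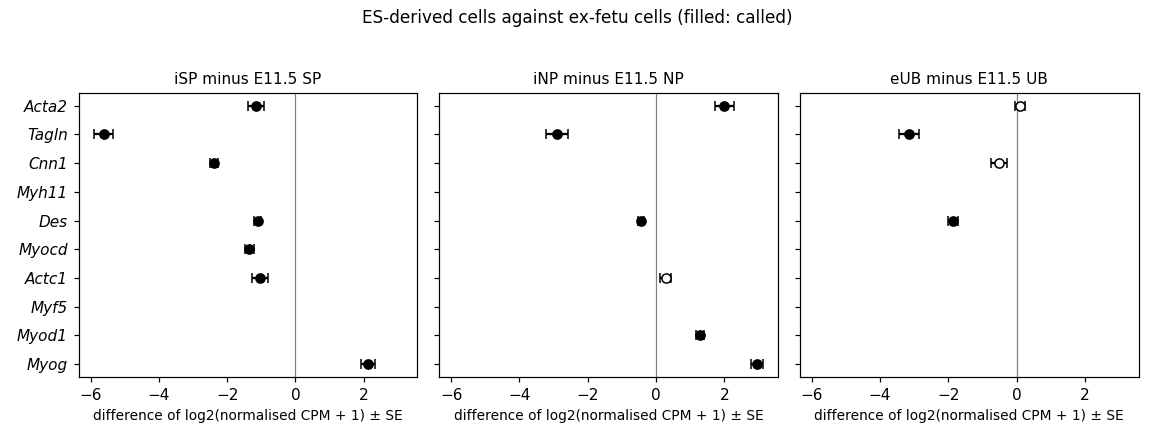
Differences of the ES-derived from the E11.5 group, on the log2(normalised CPM + 1) scale with SE (horizontal axis), for the genes (vertical axis) that passed the filter; filled points are called at an adjusted p under 0.05. *Tagln* is at -5.62, -2.90 and -3.14 in the 3 panels, and *Acta2* at -1.15 in SP and 2.0 in NP.

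Promoter sequences in RefSeq (GRCm38.p6) matched 6 of the 10 genes; those of *Tagln*, *Myh11*, *Myocd* and *Myod1* were not matched. The bases from 250 to 16 before the annotated start are shown for *Des*, *Actc1* and *Myog*, since these 3 represent the intermediate filament, the sarcomeric actin and the myogenic factor whose levels are described above. Capitals mark the matches to an E-box (CANNTG, the motif of the myogenic factors) or a CArG box (the motif of SRF); each motif reads the same on both strands, and no 2 matches overlap.
Des, chr1:75360042-75360276, plus strand: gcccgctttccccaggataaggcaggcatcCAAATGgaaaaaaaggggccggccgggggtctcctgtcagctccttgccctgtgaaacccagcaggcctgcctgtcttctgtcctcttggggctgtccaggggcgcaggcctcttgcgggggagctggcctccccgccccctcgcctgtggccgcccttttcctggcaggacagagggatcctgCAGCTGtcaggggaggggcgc
Actc1, chr2:114052891-114053125, minus strand: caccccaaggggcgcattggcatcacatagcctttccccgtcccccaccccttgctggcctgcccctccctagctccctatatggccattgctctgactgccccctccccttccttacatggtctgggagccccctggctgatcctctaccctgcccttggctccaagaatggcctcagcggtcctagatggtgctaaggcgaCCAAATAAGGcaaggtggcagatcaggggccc
Myog, chr1:134289754-134289988, plus strand: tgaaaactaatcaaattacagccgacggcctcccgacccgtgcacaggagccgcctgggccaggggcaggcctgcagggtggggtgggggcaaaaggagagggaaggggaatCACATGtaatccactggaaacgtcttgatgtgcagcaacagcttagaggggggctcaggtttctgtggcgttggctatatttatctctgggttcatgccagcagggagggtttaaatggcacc
*Des* held 2 E-boxes, *Myog* 1 and *Actc1* 0, where 64.1% of all 32851 such windows held at least 1. The single CArG box, in *Actc1*, lay 47 to 38 bases before the start, and 1.42% of all windows held one. In *Acta2* there were 3 E-boxes, in *Cnn1* 1 and in *Myf5* 0, but 202 of the 235 bases of the *Acta2* window and 22 of those of *Cnn1* lie in annotated exons, so neither is upstream sequence alone. The *Actc1* window lies within the annotated gene (chr2:114047282-114053548, GENCODE vM21), outside its exons, since another annotated transcript starts further upstream. A match is a description of the letters and not a bound site.

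Between ex-fetu SP and NP *Acta2* and *Tagln* were higher in SP, and between iSP and iNP they were lower in iSP. At E11.5, 6 members passed the filter; *Acta2* (1.83 ± 0.34), *Tagln* (1.68 ± 0.41), *Cnn1* (1.44 ± 0.16) and *Myocd* (1.01 ± 0.19) were higher in SP and *Des* lower (-0.57 ± 0.09), where 43.1% of all genes were called. At E12.5 the same 5 genes were called in the same directions, with *Acta2* at 2.10 ± 0.28 and *Myocd*, which passed through SP alone, at 2.27 ± 0.26, where 34.8% of all genes were called. Without E12.5 SP replicate 1 *Myocd* no longer passed the filter, and the other 4 calls stayed; without E12.5 NP replicate 1 all 5 stayed. With the replicate number as a block, 7961 in place of 4789 genes were called in this comparison, and the calls of the members stayed. In iSP against iNP, where 30.7% were called, 6 members passed and all were lower in iSP, *Acta2* by -1.32 ± 0.12, *Tagln* by -1.05 ± 0.15, *Des* by -1.24 ± 0.09, *Actc1* by -1.27 ± 0.19, *Myod1* by -0.67 ± 0.17 and *Myog* by -1.10 ± 0.24. *Des* was lower in SP than in NP in all 3 comparisons, and these calls stayed whichever library was left out. They were lost in the fit of all 36 libraries (adjusted p = 0.41, 0.21 and 0.08). That fit also lost *Myod1* in iSP against iNP (adjusted p = 0.078), as did leaving out iNP replicate 1 (0.052). *Myocd*, which did not pass the filter there, was higher in iSP (0.43 to 0.725) than in iNP (0 to 0.205), without overlap (exact permutation p = 0.0286).

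**Figure D5:**
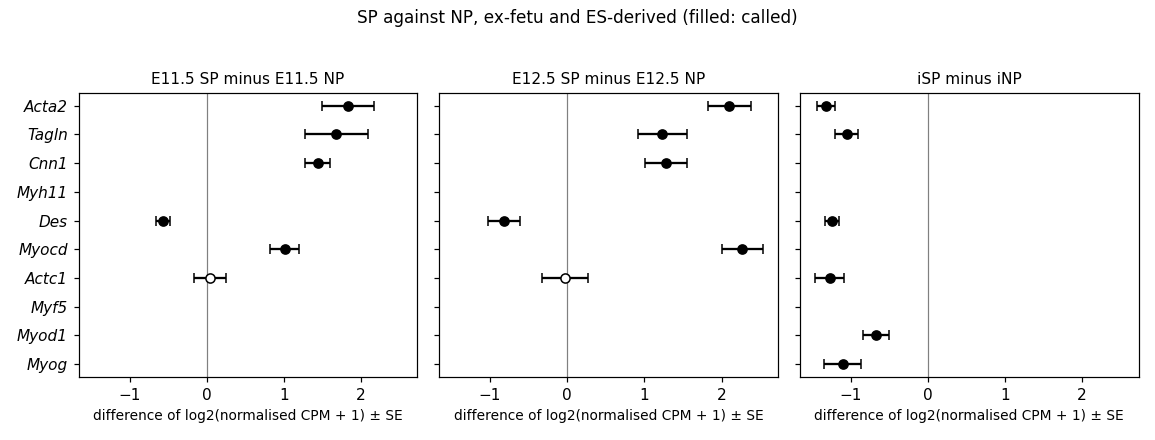
Differences of SP from NP at E11.5, at E12.5 and in ES-derived cells, on the log2(normalised CPM + 1) scale with SE (horizontal axis), for the genes (vertical axis) that passed the filter; filled points are called. *Acta2* is at 1.83, 2.10 and -1.32, and *Des* at -0.57, -0.82 and -1.24.

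The difference of ES-derived from E11.5 cells was itself compared between cell types, in fits of 16 libraries. Between SP and NP, where 29.3% of all genes differed, 9 members passed and 8 differed. *Acta2* differed by -3.15 ± 0.38 (adjusted p = 9.9e-06, limma) and *Tagln* by -2.73 ± 0.47 (adjusted p = 2.9e-04, limma), the change in SP being the lower one. *Cnn1*, *Myh11*, *Des*, *Actc1* and *Myod1* differed in the same direction, by -1.90, -0.96, -0.66, -1.31 and -1.25. *Myog* differed by -0.82 ± 0.28 (adjusted p = 0.0345, limma), but by 4.46 (adjusted p = 0.016) with edgeR on the recovered reads, so its direction depends on how the E11.5 SP libraries at 0 are handled. Leaving out 1 library lost the *Myog* call in 9 fits and the *Myh11* call in 2, those without iSP replicate 1 (adjusted p = 0.055) and without E11.5 NP replicate 4 (0.051). *Myh11* reached 1 only in 2 E11.5 SP and 2 iNP libraries, and *Myog* only in iSP and iNP. *Myocd*, not called, was called without E11.5 NP replicate 1 (-0.67, adjusted p = 0.013). Between SP and UB, where 47.4% of all genes differed, 6 of 7 members that passed differed, *Acta2*, *Tagln*, *Cnn1* and *Myocd* with the lower change in SP and *Des* and *Myog* with the higher. *Myocd* passed through E11.5 SP alone and *Myog* through iSP alone, so these 2 had to differ. *Actc1* was not called, but was called in 4 fits that left out 1 library (without E11.5 SP replicate 1 or 2, iSP replicate 1 or E11.5 UB replicate 4; -0.89 to -0.85). The *Myocd* call was lost with a pseudocount of 0.1 (adjusted p = 0.13), and with edgeR its direction turned, without a call. The *Myog* call was lost with edgeR (adjusted p = 1), and *Myog* had no reads in E11.5 UB or eUB. Between NP and UB, where 47.1% differed, *Acta2*, *Des*, *Myod1* and *Myog* differed, with the higher change in NP, and 3 members that passed did not. *Myod1* and *Myog* passed through iNP alone and so had to differ. Of the 3, *Actc1* was called without E11.5 NP replicate 1, iNP replicate 4 or E11.5 UB replicate 3 (0.64 to 0.67). Here too edgeR lost the *Myog* call (adjusted p = 1).

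Measured against E12.5 instead, which shares the ES-derived libraries with the comparisons above, iSP had lower *Acta2* (-1.79 ± 0.20), *Tagln* (-4.88 ± 0.19), *Cnn1* (-1.69 ± 0.24) and *Myocd* (-1.99 ± 0.25) and higher *Myog* (2.10 ± 0.20), with 62.1% of all genes called; *Cnn1*, *Myocd* and *Myog* passed through 1 group alone. *Des* (118 ± 33.5 in E12.5 SP, 87.8 ± 8.87 in iSP) and *Actc1* (6.27 ± 1.82 and 6.78 ± 1.97; SD, n = 4) overlapped there. Without E12.5 SP replicate 1 *Des* was called lower in iSP (-0.61, adjusted p = 2.9e-04), and *Cnn1* and *Myocd* no longer passed the filter. In iNP against E12.5 NP, where 44.3% were called, *Acta2* (1.62 ± 0.23), *Actc1* (1.34 ± 0.28), *Myod1* (1.30 ± 0.12) and *Myog* (3.07 ± 0.17) were higher and *Tagln* was lower (-2.61 ± 0.29), *Myod1* and *Myog* passing through iNP alone. These 5 calls stayed without E12.5 NP replicate 1. In eUB against E12.5 UB, where 44.4% were called, *Tagln* alone was called (-1.70 ± 0.35, adjusted p = 0.0043, limma). *Acta2* was called lower with edgeR (-1.72, adjusted p = 0.045) and in the fit of all 36 libraries (-0.97, 0.019). *Des* was called lower with both and with a pseudocount of 0.1 (-6.68, -2.44 and -4.10), and *Cnn1* higher without eUB replicate 1 (0.57, adjusted p = 0.0086). Without E12.5 UB replicate 1 *Tagln* was at -1.46 (adjusted p = 0.0058), *Acta2* was at -0.48 without a call, and *Des* no longer passed the filter.

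From E11.5 to E12.5 few members moved, and the calls in SP and NP depended on single libraries. With 1 library left out, 392 to 2889 genes in place of 1162 were called in SP and 147 to 2249 in place of 850 in NP, the highest counts being those without E12.5 replicate 1 of either type. In SP, where 8.52% of all genes were called, *Actc1* fell from 15 ± 4.88 to 6.27 ± 1.82 normalised CPM (-1.12 ± 0.24, adjusted p = 0.0208, limma). The call was lost without E11.5 SP replicate 3 (adjusted p = 0.074), without E12.5 SP replicate 2 (0.06) and without E12.5 SP replicate 4 (0.081), and in the fit of all 36 libraries (0.09). Without E12.5 SP replicate 1 it stayed, and *Des* (-0.49, adjusted p = 0.018) and *Myocd* (0.90, 0.0056) were called as well. *Des* was also called with upper-quartile scaling (-0.75, 0.043), and *Cnn1* (-0.69, 0.018) and *Myocd* (0.63, 0.011) in the fit of all 36 libraries. Without E12.5 SP replicate 1 *Cnn1* was at -0.43 and not called. In NP, where 6.34% were called, *Des* fell from 282 ± 20.7 to 203 ± 9.28 (-0.47 ± 0.09, adjusted p = 0.0191, limma). This call was lost without E11.5 NP replicate 1 (0.054), 2 (0.084) or 3 (0.083) and without E12.5 NP replicate 3 (0.063) or 4 (0.055), and in the fit of all 36 libraries (0.65). Without E12.5 NP replicate 1 it stayed, and *Actc1* was called as well (-1.06, adjusted p = 0.048), as it was without E12.5 NP replicate 3 (-1.32, 0.024) and with upper-quartile scaling (-1.08, 0.049). For UB the ages are those of the titles, with which the cell source field disagrees, so the direction with age rests on the titles. In UB, where 26.5% were called, *Tagln* fell from 51.2 ± 11.4 to 19.1 ± 8.21 (-1.44 ± 0.26) and *Cnn1* from 2.65 ± 0.215 to 1.07 ± 0.179 (-0.82 ± 0.13), and both calls stayed whichever library was left out. Without E12.5 UB replicate 1 these were -1.68 and -0.78, *Acta2* was called higher (0.59, adjusted p = 0.027), *Des* turned from 0.57 to -0.56 without a call in either fit, and 5982 in place of 3648 genes were called, against 2332 without E11.5 UB replicate 1. With all libraries *Acta2* was called higher with edgeR (1.88, adjusted p = 0.043) and in the fit of all 36 libraries (1.07, 0.025).

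Ex-fetu SP had more of most smooth muscle genes than UB. At E11.5, where 53.6% of all genes were called, *Acta2* (2.73 ± 0.25), *Cnn1* (0.76 ± 0.13), *Des* (5.47 ± 0.13), *Actc1* (2.98 ± 0.23) and *Myocd* (1.82 ± 0.14, passing through SP alone) were higher in SP, and *Tagln*, at 54.7 to 141 in SP and 37.7 to 62.9 in UB, was not called, except without E11.5 SP replicate 3 (0.82, adjusted p = 0.046) or 4 (0.85, 0.016). At E12.5, where 46.4% were called, *Acta2* (2.30 ± 0.46), *Tagln* (1.36 ± 0.28), *Cnn1* (0.89 ± 0.26), *Des* (4.18 ± 0.96) and *Myocd* (2.59 ± 0.26, again through SP alone) were higher. Without E12.5 SP replicate 1 *Myocd* no longer passed the filter, and the other 4 calls stayed. Without E12.5 UB replicate 1, *Des* was at 5.31 and *Actc1* was called as well (1.98, from 1.06); with all libraries, edgeR did not call *Des* (adjusted p = 0.094). The *Cnn1* call was lost without E12.5 SP replicate 4 (adjusted p = 0.051) and without E12.5 UB replicate 2 (0.055). In iSP against eUB, where 64.7% were called, *Acta2* (1.47 ± 0.13), *Des* (6.23 ± 0.09), *Actc1* (2.23 ± 0.18) and *Myog* (2.13 ± 0.20) were higher in iSP and *Tagln* was lower (-1.81 ± 0.28); *Des*, *Actc1* and *Myog* passed through iSP alone.

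Other genes of the contractile programme were lower in iSP as well. The counts of listed genes here and in the next paragraphs stand against 67.6% of all genes called in iSP against E11.5 SP, 64.7% in iNP against E11.5 NP and 60.5% in eUB against E11.5 UB. Of 19 further smooth muscle contractile genes in the table, 15 passed the filter in iSP against E11.5 SP, 0 were higher and 14 lower, with a median difference of -1.17 where the median of all genes tested was 0.04. *Myl9*, a regulatory light chain of smooth muscle myosin, was at 9.81 ± 0.493 normalised CPM in iSP, against 59.9 ± 7.24 in E11.5 SP (SD, n = 4; -2.49 ± 0.10). *Tpm1*, a tropomyosin, was at 122 ± 4.89 and 659 ± 226, and *Mylk*, the kinase of the light chain, at 8.92 ± 1.46 and 34.9 ± 4.68. In iNP against E11.5 NP, 14 of the same genes passed, with 7 higher and 2 lower, a share near that of all genes. *Tagln2*, a relative of transgelin, was higher in iNP (50 ± 9.45 against 13.2 ± 1.73), and in iSP it was lower (19.9 ± 2.14 against 84.3 ± 40.4). In eUB against E11.5 UB, 14 passed, with 1 higher (*Cald1*, caldesmon, at 90 ± 8.39 against 25.9 ± 3.84) and 7 lower.

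Of 15 regulators of smooth muscle, 13 passed in iSP against E11.5 SP, 1 was higher and 9 lower (median -1.41). In iNP against E11.5 NP, 13 passed, with 6 higher and 6 lower (median -0.01). The list was not split by whether a regulator raises or lowers the contractile genes. *Tbx18*, a marker of the ureteric mesenchyme that gives rise to ureter smooth muscle, was at 16.4 ± 1.85 normalised CPM in iSP, against 104 ± 16.1 in E11.5 SP. *Tshz3*, which acts in the same lineage, was at 38.4 ± 3.26 and 109 ± 17.7, and *Klf4* at 13.8 ± 5.11 and 94.6 ± 18.4. *Srf* itself was lower in iSP (118 ± 13.2 against 326 ± 104, -1.41 ± 0.21) and in iNP (140 ± 12.5 against 311 ± 53.5, -1.13 ± 0.13). Its partners *Mkl1* (45.2 ± 3.09 in iSP, 51.6 ± 11.5 in E11.5 SP) and *Mkl2* (68 ± 6.74, 60.8 ± 8.44) were not called in SP. Of 13 cytoplasmic actin and SRF target genes in the table, 12 passed in SP, with 3 higher and 7 lower, and *Ctgf* was at 1.67 ± 0.605 in iSP, against 69 ± 20 in E11.5 SP. Of 8 pericyte and mural genes, 6 passed in SP, with 2 higher and 3 lower, and 6 passed through both groups in NP, with 4 higher and 1 lower; 1 more passed through iNP alone. *Rgs5*, a pericyte gene, was at 57.5 ± 9.21 in iSP against 169 ± 36.8, and at 109 ± 16.4 in iNP against 3.65 ± 0.741. *Plagl1*, *Atf3*, *Maff* and *Klf5*, genes the study itself annotates to muscle differentiation on these samples and so no independent evidence, were all 4 lower in iSP and in iNP, 2 of them passing in SP through E11.5 SP alone.

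Of 26 further sarcomere genes in the table, 13 passed in iNP against E11.5 NP. For 7 of them only iNP reached a value of 1, so these had to come out higher; of the other 6, 5 were higher and 0 lower (median 0.54, all genes tested 0.07). *Myh3*, the embryonic myosin heavy chain, was at 4.66 ± 1.3 normalised CPM in iNP, against 0.24 ± 0.165 in E11.5 NP, and passed through iNP alone. *Tnnt1*, a slow troponin T, reached 1 in both groups, with 5.09 ± 1.45 in iNP, against 1.1 ± 0.278 in E11.5 NP (1.52 ± 0.17). In SP, 8 passed, 4 of them through both groups, with 0 higher and 2 lower; the other 4 passed through 1 group alone. Of 18 other skeletal muscle regulators in the table, 13 passed through both groups in NP, with 5 higher and 5 lower, and 12 in SP, with 6 higher and 3 lower; 3 more in each passed through 1 group alone. *Pax3* was at 17.5 ± 1.83 in iNP, against 0.726 ± 1.02 in E11.5 NP, and *Pax7*, which passed through iNP alone, at 7.1 ± 0.906 and 0.0213 ± 0.0426. In iSP *Pax3* was at 2.05 ± 0.472 and *Pax7* at 0.913 ± 0.286.

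Markers of other cells also differed between ES-derived and E11.5 cells, not always in the direction of the muscle genes. Summed over 6 somite and paraxial mesoderm markers, levels were 328 to 344 normalised CPM in iNP, against 495 to 537 in E11.5 NP, 213 to 235 in iSP, against 28.2 to 39.4 in E11.5 SP; 4 of 6 were higher in each of iNP and iSP, and 2 were lower in iNP. Over 5 neural markers they were 38.5 to 63.7 in iNP, against 5.88 to 10.4 in E11.5 NP, and 2.87 to 5.03 in iSP, against 9.68 to 16.2 in E11.5 SP. Over 6 endothelial markers they were 49.2 to 83.7 in iNP, against 9.71 to 30.2 in E11.5 NP. Over 6 ureteric bud markers they were 50.8 to 60.2 in iSP and 121 to 265 in E11.5 SP, but 70.9 to 84.1 in iNP and 40.8 to 51.1 in E11.5 NP. Over 6 macrophage markers they were 2 to 5.45 in eUB and 55.6 to 93.6 in E11.5 UB. In erythroid markers iSP was at or below 0.0483 and E11.5 SP at 4.97 to 159. Their part in the results on the muscle genes was not tested.

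Across the 9 group means, the genes most like *Acta2* among 16131 searched were *Gucy1b3* (Pearson r = 0.983), *Adamtsl4* (0.972), *Galnt14* (0.970), *Gucy1a3* (0.963) and *Klhl4* (0.960). *Gucy1b3* and *Gucy1a3* encode the subunits of soluble guanylate cyclase, the nitric oxide receptor of smooth muscle. *Gucy1b3* was at a mean of 14.1 normalised CPM in E11.5 SP, 5.82 in iSP, 1.65 in E11.5 NP and 20.3 in iNP. The genes most like *Actc1* were *Adh1* (0.983), *Ppp1r14a* (0.965), *Hunk* (0.960), *Prkg2* (0.948) and *Des* (0.943). These values describe 9 points that share libraries and the contrast of mesenchyme with epithelium, and the E12.5 UB mean includes replicate 1.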

How the data were processed

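RNA sequencing of 36 samples was used. The authors used Cutadapt for trimming, STAR for alignment and edgeR for normalisation; how reads were counted, with or without strand, and on which annotation release is not given in the sources used here, and the methods write GRCh38 although the identifiers are mouse. The deposited signal values are CPM that the authors scaled by edgeR factors. All values (100%) were whole multiples of 1 read within 0.01, so reads could be recovered (13.0 to 52.5 M, mega-reads, per library). A second deposited table holds the same values with group means and the authors' fold changes and p-values, and was not used. Replicates of a group are separate pools of embryos or embryoid bodies, and p-values measure the spread between these pools. Samples of different cell types may share a pool, since the study sorted NP and SP from the same kidneys and iNP and iSP from the same culture. Which samples do so is not given, and only the replicate block allows for it, by sample number.

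The test was limma 3.58.1 under R 4.3.3 (a linear fit per gene and a moderated, trended variance), run on log2(value + 1) for genes that reached 1 in at least 4 of a comparison's libraries. P-values were adjusted by Benjamini-Hochberg over all genes tested, with a threshold of 0.05; the log2 scale understates changes of low genes. Members that did not pass were compared by exact two-sided permutation over 70 splits. In all, 15 comparisons and 3 differences between cell types were made. Alternatives were a pseudocount of 0.1, no filter, upper-quartile scaling, edgeR 4.0.16 on the recovered reads, a fit of all 36 libraries, a replicate block, and each library left out. The fit of all 36 libraries takes the spread of each gene from all groups, E12.5 UB replicate 1 included. Same-numbered E12.5 SP and E12.5 NP samples deviated together (correlations of 0.54 to 0.70); in no other comparison were all 4 correlations over 0.1. All 10 members are drawn in every group, but not all are named in each comparison. In each gene list, up to 4 called genes with the largest change in iSP, and up to 2 elsewhere, are named, with *Srf*, *Mkl1*, *Mkl2*, *Tbx18*, *Tshz3*, *Pax3* and *Pax7*. Some genes that this rule names are not reported here. The members and lists were chosen with earlier results of these data known. The scripts were tested on simulated data. Other steps used Python 3.11.15.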

Additional observations from a re-analysis of the deposited data

Results flagged for a closer look

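In 13 of 78 sets of 4 replicates with a member above 3 reads in some library, the highest or lowest library lay far from the others (by Dixon's ratio of gap to range, at its 95% critical value). No rate by chance is set against this count, since sets share libraries. A set with reads in 1 library alone is also always marked, as for *Myocd*, *Myf5*, *Myod1* and *Myog* in E12.5 UB. Of the 13, 7 were E12.5 UB replicate 1, at 65.8 normalised CPM for *Des*, 21.9 for *Actc1*, 12.9 for *Acta2*, 6.84 for *Myog*, 3.64 for *Myod1*, 0.737 for *Myf5* and 0.246 for *Myocd*. The others were *Tagln* at 55 in E11.5 NP replicate 1, *Actc1* at 8.99 in E12.5 SP replicate 3, *Myh11* at 0.362 in E11.5 UB replicate 2 and at 0.149 in eUB replicate 1, *Myod1* at 0.569 in E11.5 UB replicate 4, and *Myocd* at 0 in iNP replicate 2.

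The change from E11.5 to ES-derived cells differed between cell types by the tests of the difference itself (limma, adjusted p under 0.05). Between SP and NP it differed for *Acta2* (-3.15), *Tagln* (-2.73), *Cnn1* (-1.90), *Actc1* (-1.31), *Myod1* (-1.25), *Myh11* (-0.96), *Myog* (-0.82) and *Des* (-0.66), the lower change being in SP. The *Myog* difference turned with edgeR. Its call was also lost in 9 of the fits that left out 1 library, and that of *Myh11* in 2. Between SP and UB it differed for *Tagln* (-2.48), *Cnn1* (-1.86), *Acta2* (-1.26), *Myocd* (-1.13), *Des* (0.77) and *Myog* (2.13). Between NP and UB it differed for *Myog* (2.95), *Acta2* (1.90), *Myod1* (1.5) and *Des* (1.43), the higher change being in NP. *Myocd* and *Myog* against UB in SP, and *Myod1* and *Myog* against UB in NP, passed the filter through 1 group alone, where they are high, and so had to differ. Both *Myog* differences from UB lost their call with edgeR (adjusted p = 1).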

How the results depend on the processing

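Of 78 calls of members in the 15 comparisons and 3 differences between cell types, a replicate block, no filter and upper-quartile scaling each kept 78, a pseudocount of 0.1 kept 76 and edgeR on the recovered reads 73; the fit of all 36 libraries, which could be made for 60 of them, kept 51. The replicate block changed no call of a member, and its 2 called members in E12.5 UB against E11.5 UB were those of the fit without it; it moved the count of all genes called there from 3648 to 2365, and from 4789 to 7961 between E12.5 SP and E12.5 NP.

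The number of members called changed by over 1.5 times as follows. Without the filter it was 9 in iNP against E11.5 NP (5 with it), 8 in iSP against E12.5 SP (5) and 9 in iSP against eUB (5), since more members were tested. In eUB against E12.5 UB (1) it was 2 with a pseudocount of 0.1, 3 with edgeR and 3 in the fit of all 36 libraries. In E12.5 against E11.5 SP (1) it was 2 with upper-quartile scaling and 2 in the fit of all 36 libraries, in E12.5 against E11.5 NP (1) it was 2 with upper-quartile scaling, and in iSP against eUB it was 8 in the fit of all 36 libraries. For the changes in eUB against E12.5 UB and in the E12.5 against E11.5 comparisons the cause was not tested.

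Leaving out 1 library in turn gave 1 to 2 members called in eUB against E11.5 UB, 3 to 5 in iNP against E11.5 NP, 1 to 2 in eUB against E12.5 UB, 3 to 4 in iSP against E12.5 SP, 3 to 5 in iNP against E12.5 NP, 0 to 3 in E12.5 against E11.5 SP, 0 to 2 in E12.5 against E11.5 NP, 3 to 6 in E12.5 SP against E12.5 UB, 2 to 5 in iSP against eUB, and 2 to 5 for the difference between NP and UB. A gene at 1 or more in 4 libraries alone no longer passes the filter when 1 of these is left out.

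Some directions turned, 2 of them of called values. Between SP and NP, *Myog* (-0.82, called) was at 0.27 with a pseudocount of 0.1 and at 4.46 with edgeR, and *Myocd* at 0.11 and 0.45. Between SP and UB, *Myocd* (-1.13, called) was at 2.89 with edgeR, where it was not called. Between NP and UB, *Tagln* was at -0.27 with edgeR, and *Cnn1* at -0.08 with a pseudocount of 0.1 and -0.40 with edgeR. *Myh11* in E12.5 against E11.5 SP was at -0.06 with edgeR. With 1 library left out, the ranges that crossed 0 were -0.05 to 0.26 for *Actc1* in iSP against E12.5 SP, -0.01 to 0.06 for *Des* in iNP against E12.5 NP, -0.56 to 1.07 for *Des* in E12.5 against E11.5 UB, -0.16 to 0.10 for *Myh11* in E12.5 against E11.5 SP and -0.61 to 0.09 for *Tagln* in E12.5 against E11.5 NP. They were -0.14 to 0.17 for *Actc1* in E11.5 SP against NP, -0.26 to 0.24 for *Actc1* in E12.5 SP against NP, and -0.05 to 0.62 for *Tagln* and -0.23 to 0.16 for *Cnn1* between NP and UB. The count of all genes called also moved in E12.5 against E11.5 SP (1162), to 3141 in the fit of all 36 libraries, and in E12.5 against E11.5 NP (850), to 1572. Members at a few reads, such as *Myf5*, *Myocd* and *Myh11*, are limited by depth.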
